A study of Danio rerio with 6 samples.

Results

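Intestinal absorption genes were described here in tails of zebrafish larvae with and without a mutation of sirt6, the gene of a NAD-dependent histone deacylase. The set held 10 genes, picked by symbol from the 38157 genes of the FPKM table: the transporters slc10a2, slc5a1 and slc15a1b, the peptidase gene anpepb, the microvillus gene vil1, the lipid-binding protein genes fabp1b.1, fabp6, fabp2 and rbp2a, and the homeobox gene cdx1b. All 10 were found and had a mean of at least 0.5 FPKM (fragments scaled to gene length and to a size set for each library). The set was chosen with the difference between genotypes already known from these libraries, so that difference is given for its members as a description, with no test.

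The mutant group was 3 libraries of larvae of a sirt6 line made with CRISPR/Cas9, set against 3 libraries of wild-type (WT) larvae, all at 3 days post fertilisation (dpf). RNA came from tails with their blood-forming tissue, after genotyping. The sources used here do not give the lesion, the zygosity, the parentage of the WT larvae or the number of larvae in a library. Nor do they give the position of the cut that took the tail. They do not say that libraries came from separate pools, so the spread between libraries may be technical.

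Enterocytes, the absorptive cells of the gut, carry a brush border of microvilli. Peptidases there cut peptides, and transporters of the membrane take up sugars, short peptides and bile acids, mostly against their gradients by coupling to sodium or protons. Inside the cell, small proteins of the fatty acid-binding family carry fatty acids, bile acids and retinol. In mammals bile acids are taken up mainly in the last part of the small intestine, and glucose and peptide carriers of these families also serve in the kidney tubule.

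The libraries held 12438359 to 14655293 reads in genes. WT libraries 2 and 3 lay close to each other, with 2.94 as the chi-square of their reads per gene divided by its degrees of freedom, and so did mutant libraries 1 and 3, at 3.58. The other 13 pairs had 16.4 to 41.2. WT library 1 stood apart in short genes: its level over the mean of WT libraries 2 and 3 had a median of 1.17 for genes under 1000 bases and of 0.982 for longer ones. Mutant library 2 differed in the same direction but less. Its level over the mean of mutant libraries 1 and 3 had medians of 1.07 and 1.02. Muscle genes were high, as the label tail implies, with the muscle actin gene actc1b at 11470 to 15163 FPKM in mutants and 12341 to 14414 FPKM in WT. Transcripts of abdominal organs were high too. The trypsin gene prss1 of the pancreas had 672 to 952 FPKM in mutants and 659 to 1043 FPKM in WT, and the liver apolipoprotein gene apoa2 had 2835 to 4257 FPKM in mutants and 3604 to 4628 FPKM in WT. The targeted gene sirt6 had 3.52, 3.39 and 3.04 FPKM in mutant libraries 1, 2 and 3, against 5.85, 3.25 and 2.44 FPKM in WT libraries 1, 2 and 3. The genotypes overlapped, and without the position of the lesion this level is no check of the genotypes.

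The 3 transporters and anpepb had lower values in every mutant library than in any WT library, with ratios of the means of 0.836 for slc5a1, 0.838 for slc15a1b, 0.846 for anpepb and 0.465 for slc10a2. The 4 lipid-binding protein genes and vil1 were highest in WT library 1 and overlapped between genotypes. The gene cdx1b overlapped too and was highest in WT library 2. Groups did not overlap for 4 of 10 genes, all lower in mutants, and over all 23855 genes tested this held for 5.4% as lower and 5.16% as higher in mutants. The choice of the set used this contrast, so nothing is read from that count. In bulk tails, fewer enterocytes, less RNA per enterocyte, less gut in the cut tails and lower levels in other tissues cannot be told apart.

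**Figure D1:**
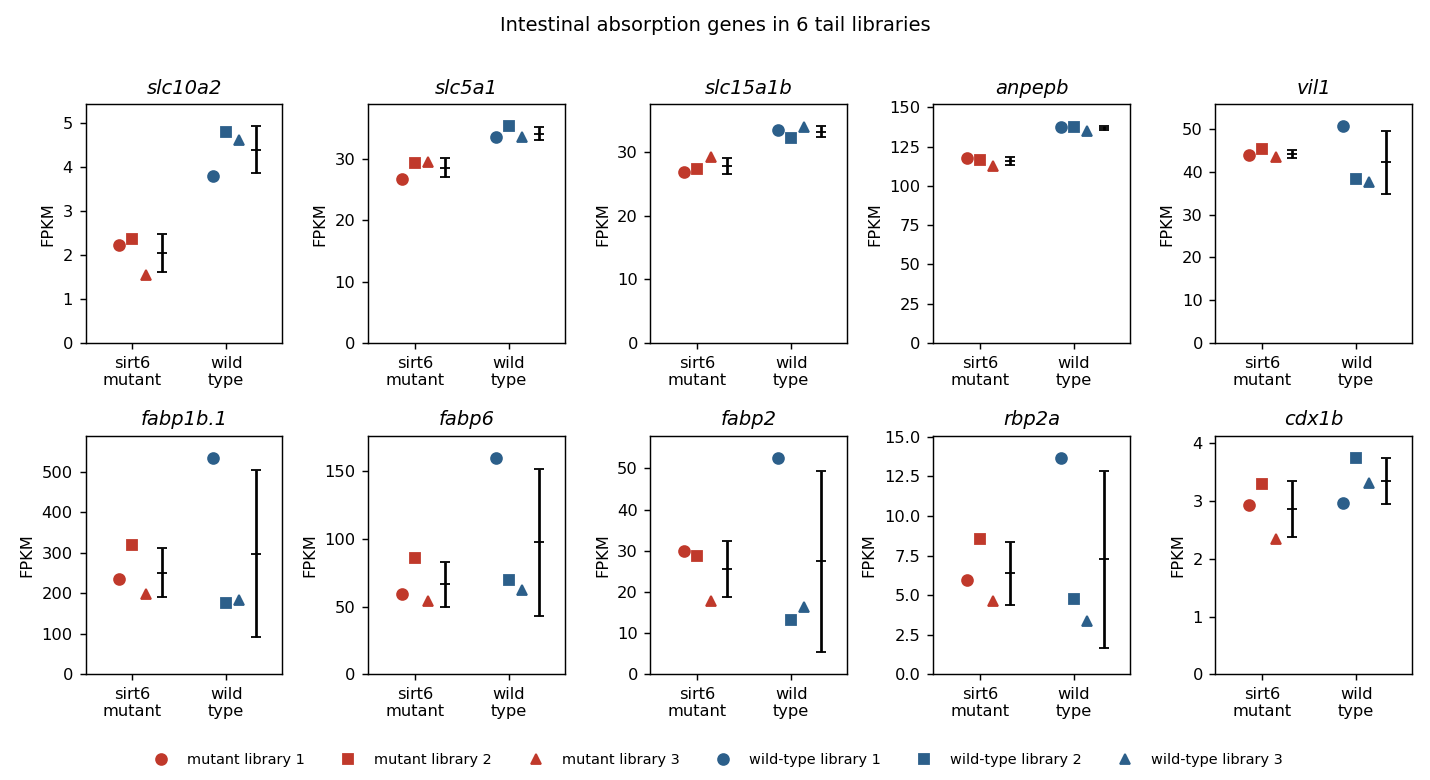
FPKM of each of the 10 intestinal absorption genes in each library, sirt6 mutants in red and wild type in blue, with symbols for library numbers and black bars for the mean and SD of 3 libraries. The genotypes are apart in slc10a2, slc5a1, slc15a1b and anpepb, while WT library 1 lies above all other libraries in vil1, fabp1b.1, fabp6, fabp2 and rbp2a.

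The bile acid transporter gene slc10a2 (ENSDARG00000014916, GRCz11 chr9:27339505-27344683, plus strand) takes up bile acids at the apical membrane together with sodium. It had 2.22, 2.37 and 1.55 FPKM in mutant libraries 1, 2 and 3, against 3.79, 4.79 and 4.62 FPKM in WT libraries 1, 2 and 3. All mutant libraries were below the lowest WT library, and the lowest of all was mutant library 3. The means were 2.05 ± 0.435 FPKM in mutants and 4.40 ± 0.534 FPKM in WT (SD, n = 3 each), a ratio of 0.465. On the log2(FPKM + 0.5) scale the mutant mean minus the WT mean, here called the log2 fold change, was -0.95 (SE 0.19). The gene had 42 to 59 reads per mutant library and 97 to 121 per WT library, so counting error is part of its spread.

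The sodium/glucose cotransporter gene slc5a1 (ENSDARG00000013871, chr10:17135631-17159761, minus strand) had 26.7, 29.3 and 29.5 FPKM in mutant libraries 1, 2 and 3, against 33.5, 35.3 and 33.5 FPKM in WT libraries 1, 2 and 3. The means were 28.5 ± 1.54 FPKM in mutants and 34.1 ± 1.04 FPKM in WT (SD, n = 3 each), with a log2 fold change of -0.26 (SE 0.12). The genotypes were apart and each was tight, with a coefficient of variation of 5.41% in mutants and 3.06% in WT. The peptide transporter gene slc15a1b (ENSDARG00000044528, chr6:12556427-12588044, minus strand), whose protein takes up di- and tripeptides with protons, had 26.9, 27.4 and 29.3 FPKM in mutant libraries 1, 2 and 3, against 33.6, 32.3 and 34.0 FPKM in WT libraries 1, 2 and 3. Its means were 27.9 ± 1.27 FPKM in mutants and 33.3 ± 0.854 FPKM in WT (SD, n = 3 each), with a log2 fold change of -0.25 (SE 0.12). The WT libraries again lay above all mutant libraries.

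The gene anpepb (ENSDARG00000103878, chr25:10811551-10827771, plus strand) encodes aminopeptidase N, which trims peptides at the brush border. It had 118, 116 and 113 FPKM in mutant libraries 1, 2 and 3, against 137, 138 and 135 FPKM in WT libraries 1, 2 and 3. The means were 116 ± 2.52 FPKM in mutants and 137 ± 1.32 FPKM in WT (SD, n = 3 each), with a log2 fold change of -0.24 (SE 0.12). Of the 10 genes it varied least within WT, with a coefficient of variation of 0.965%, and it had 5119 to 6279 reads per library. The limma SE of anpepb is wider than these values alone would give, because limma draws the spread of each gene toward that of genes of like level.

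The microvillus gene vil1 (ENSDARG00000040466, chr9:44907768-44953664, minus strand) encodes villin, which bundles actin in the brush border. It had 44.0, 45.3 and 43.5 FPKM in mutant libraries 1, 2 and 3, against 50.8, 38.4 and 37.6 FPKM in WT libraries 1, 2 and 3. The mutant libraries lay between WT library 1 and the other WT libraries. The means were 44.3 ± 0.953 FPKM in mutants and 42.3 ± 7.36 FPKM in WT (SD, n = 3 each), with a log2 fold change of 0.08 (SE 0.15). A gene on the other strand that overlaps vil1, BX571855.1, was listed at 0 in all libraries.

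Of the lipid-binding protein genes, fabp1b.1 (ENSDARG00000059227, chr8:999421-1006174, plus strand) encodes a fatty acid carrier of the liver type. It had 235, 319 and 199 FPKM in mutant libraries 1, 2 and 3, against 535, 176 and 182 FPKM in WT libraries 1, 2 and 3. WT library 1 was the highest and the other WT libraries were the lowest of all 6. The ileal-type bile acid carrier gene fabp6 (ENSDARG00000044566, chr21:30043054-30047353, plus strand), whose mammalian protein takes bile acids through the enterocyte after SLC10A2 has brought them in, had 59.201, 85.7 and 54.4 FPKM in mutant libraries 1, 2 and 3, against 160, 69.7 and 62.5 FPKM in WT libraries 1, 2 and 3. Mutant library 2 lay above WT libraries 2 and 3, so the genotypes overlapped.

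The intestinal fatty acid carrier gene fabp2 (ENSDARG00000006427, chr1:25848231-25851575, plus strand) had 30.0, 28.8 and 17.8 FPKM in mutant libraries 1, 2 and 3, against 52.6, 13.3 and 16.4 FPKM in WT libraries 1, 2 and 3. The retinol carrier gene rbp2a (ENSDARG00000070038, chr15:5803458-5815006, minus strand) had 5.96, 8.56 and 4.64 FPKM in mutant libraries 1, 2 and 3, against 13.7, 4.76 and 3.39 FPKM in WT libraries 1, 2 and 3. In both genes WT library 1 was the highest and a WT library was also the lowest. Log2 fold changes of the 4 carriers were -0.07 (SE 0.42) for fabp1b.1, -0.44 (SE 0.35) for fabp6, 0.14 (SE 0.48) for fabp2 and 0.02 (SE 0.45) for rbp2a. Those of fabp1b.1, fabp2 and rbp2a were smaller than their SE, and rbp2a had only 29 to 128 reads per library.

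The transcription factor gene cdx1b (ENSDARG00000116139, chr21:43976075-43992027, minus strand), a caudal-type homeobox gene that acts in the gut endoderm of zebrafish, had 2.93, 3.30 and 2.35 FPKM in mutant libraries 1, 2 and 3, against 2.97, 3.75 and 3.31 FPKM in WT libraries 1, 2 and 3. The genotypes overlapped, and the log2 fold change was -0.20 (SE 0.18). The gene ik overlaps cdx1b on the other strand at 28.9 to 34.1 FPKM in mutants and 19.7 to 45.1 FPKM in WT. Without a stated strand setting, reads of the overlap cannot be told apart.

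Levels per length ran over a wide range. By mean level in WT the order was fabp1b.1, anpepb, fabp6, vil1, slc5a1, slc15a1b, fabp2, rbp2a, slc10a2 and cdx1b. In WT, neighbours in this order overlapped in their libraries for anpepb and fabp6, for slc5a1 and slc15a1b, for slc15a1b and fabp2, for fabp2 and rbp2a and for rbp2a and slc10a2. In mutants the order was the same but for the last pair, where cdx1b stood above slc10a2. Mutant libraries 1, 2 and 3 each had more cdx1b than slc10a2 per length, while WT libraries 1, 2 and 3 each had more slc10a2 than cdx1b.

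**Figure D2:**
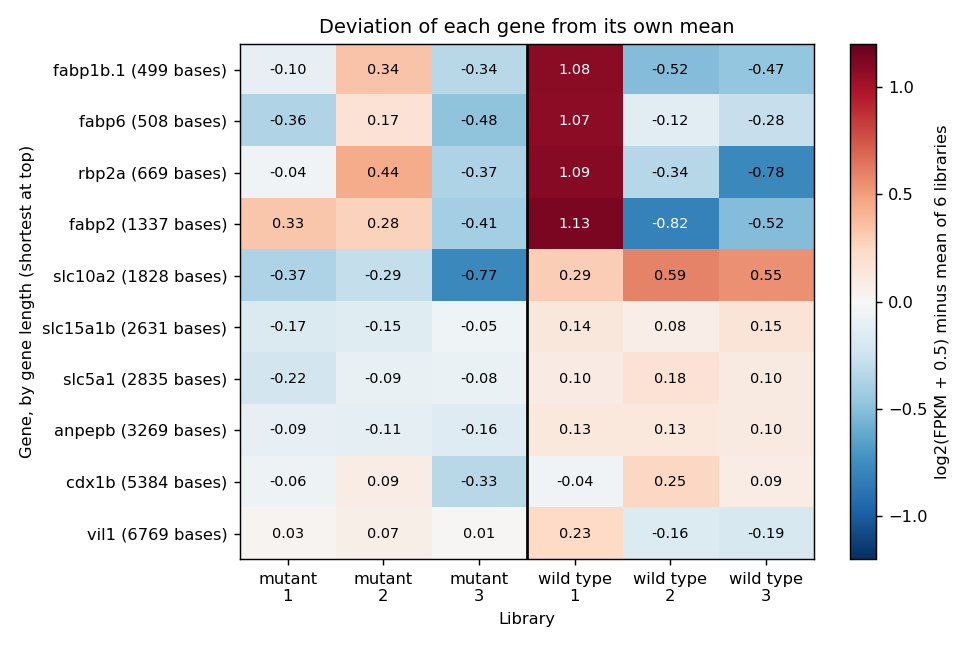
Level of each gene in each library on the log2(FPKM + 0.5) scale, minus the mean of that gene over the 6 libraries, with genes in rows from the shortest to the longest and mutant libraries left of the line. The 4 shortest genes deviate by 1.07 to 1.13 in WT library 1, and slc10a2, slc15a1b, slc5a1 and anpepb are below 0 in all mutant libraries and above 0 in all WT libraries.

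The 4 carriers were the shortest genes of the set, with lengths in the table of 499 bases for fabp1b.1, 508 for fabp6, 669 for rbp2a and 1337 for fabp2, against 1828 to 6769 bases for the others. WT library 1 had 2.99 times the mean of WT libraries 2 and 3 in fabp1b.1, 2.42 times in fabp6, 3.35 times in rbp2a and 3.55 times in fabp2. In the longer genes this ratio was 1.33 for vil1 and 0.806 to 1.01 for the other 5. Mutant library 2 had 1.47 times the mean of mutant libraries 1 and 3 in fabp1b.1, 1.51 times in fabp6, 1.61 times in rbp2a and 1.21 times in fabp2. In the longer genes of the set it had 0.974 to 1.26 times that mean. Over all tested genes with a value, WT library 1 reached at least 2 times the mean of the other WT libraries in 17.9% of 3384 genes under 1000 bases and in 3.89% of 20385 longer genes. At 1337 bases fabp2, the carrier with the largest ratio, falls among the longer genes of this split. The part of gene length in the levels of the carriers was not tested.

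Across the 6 libraries the 4 carriers varied together. Pearson's r on the log2 scale was 0.773 to 0.969 over their 6 pairs, and 0.909 to 0.989 after the genotype means were taken out. The gene vil1 followed them, with r of 0.71 to 0.924, although it was the longest gene of the set. The 3 transporters and anpepb had r of 0.798 to 0.962 among themselves, but only -0.947 to 0.657 with the genotype means taken out. Between the carriers and these 4 genes r lay between -0.273 and 0.469. These values describe 6 libraries that share depth, scaling and WT library 1, and no p is given.

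The genes whose pattern over the 6 libraries was most like the mean of the set were rpl35, C5H11orf54, rpl38, psph and atp5mf, with Pearson r of 0.991 to 0.995 among 15161 genes with a symbol and a mean of at least 1 FPKM. The genes rpl35 and rpl38 encode ribosomal proteins. The gene rpl35 had 588, 757 and 483 FPKM in mutant libraries 1, 2 and 3, against 1262, 577 and 579 FPKM in WT libraries 1, 2 and 3. WT library 1 was the highest in each of the 5, as it was in the mean of the 10 genes, and 145 genes had an r of at least 0.95. Among the 10 genes themselves, WT library 1 was the highest only in the carriers and vil1.

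Ratios between genes of the same library do not depend on its scaling. The ratio of slc10a2 to slc5a1 was 0.0831, 0.0808 and 0.0527 in mutant libraries 1, 2 and 3, against 0.113, 0.136 and 0.138 in WT libraries 1, 2 and 3. The mutant libraries were again below every WT library. The same held for the ratio of slc10a2 to anpepb, with means of 0.0177 ± 0.00347 in mutants and 0.0322 ± 0.00398 in WT (SD, n = 3 each), and for its ratios to slc15a1b and vil1. The ratio of slc10a2 to fabp6 overlapped, at 0.0276 to 0.0375 in mutants and 0.0237 to 0.0739 in WT.

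Among the ratios that overlapped, that of slc15a1b to slc5a1 averaged 0.98 ± 0.0392 in mutants and 0.977 ± 0.0536 in WT, and that of slc5a1 to anpepb averaged 0.247 ± 0.0177 in mutants and 0.249 ± 0.00642 in WT (SD, n = 3 each). The ratio of anpepb to vil1 was 2.57 to 2.67 in mutants and 2.70 to 3.59 in WT, so the groups were just apart, with WT library 1 next to the mutants. Among the carriers the ratio of fabp6 to fabp1b.1 was 0.252, 0.269 and 0.273 in mutant libraries 1, 2 and 3, against 0.299, 0.396 and 0.343 in WT libraries 1, 2 and 3. The mutant libraries lay below all WT libraries in that ratio, which neither gene showed by its own level. These ratios are of genes chosen with the genotype difference known and were not tested.

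**Figure D3:**
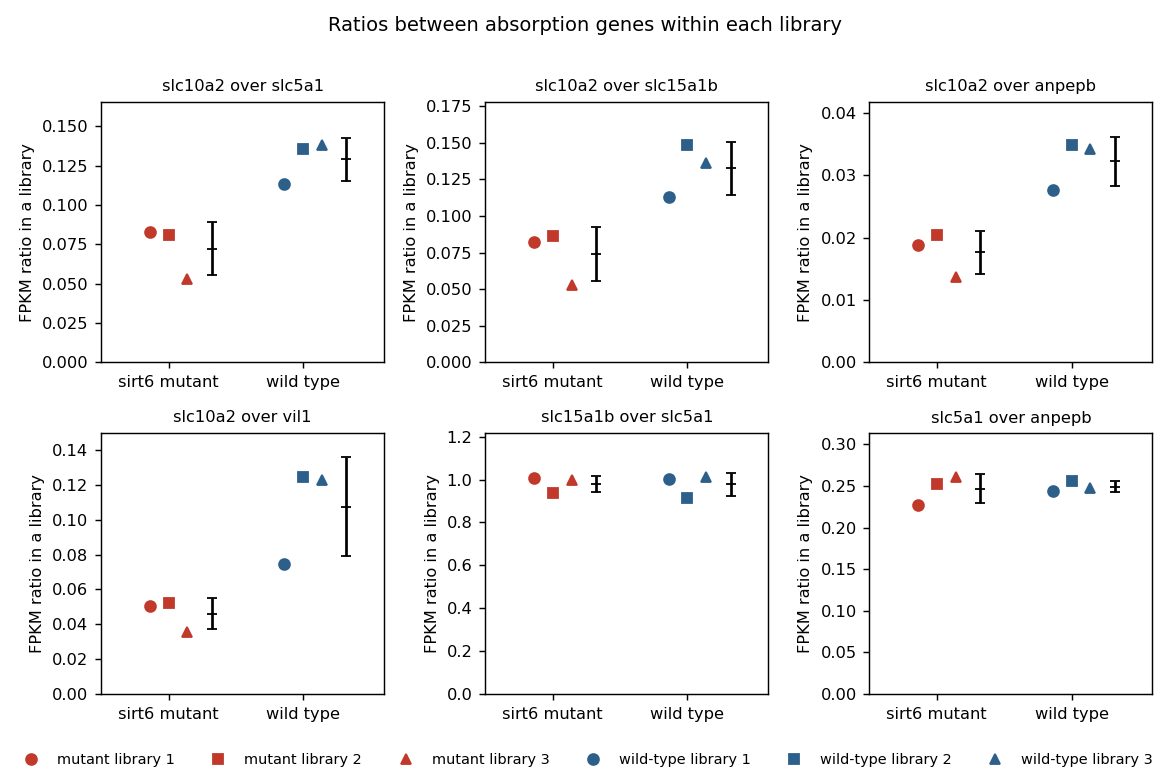
Ratio of the FPKM of 2 genes within a library, for 6 pairs of absorption genes, with mutants in red, wild type in blue, symbols for library numbers and black bars for mean and SD of 3 libraries. The ratios of slc10a2 to slc5a1, slc15a1b, anpepb and vil1 are lower in each mutant library than in any WT library, while slc15a1b over slc5a1 and slc5a1 over anpepb overlap.

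Since the genotypes were apart for slc10a2, slc5a1, slc15a1b and anpepb, leaving out a library could change the size of their log2 fold changes but not the sign. Without WT library 1 these were -1.05 for slc10a2, -0.27 for slc5a1, -0.24 for slc15a1b and -0.24 for anpepb. Of the carriers, fabp1b.1, fabp2 and rbp2a changed sign. Without WT library 1 the log2 fold change of fabp1b.1 was 0.46, that of rbp2a 0.57, that of fabp2 0.74 and that of fabp6 -0.02. Leaving out WT library 3 gave -0.32 for fabp1b.1, -0.37 for rbp2a, -0.09 for fabp2 and -0.69 for fabp6. Without WT library 1 and mutant library 2 together, an alternative chosen after seeing the data, slc10a2 was at -1.14, fabp6 at -0.22 and fabp2 at 0.63. The libraries left in that fit are the close pairs, so genotype and pair cannot be told apart there.

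**Figure D4:**
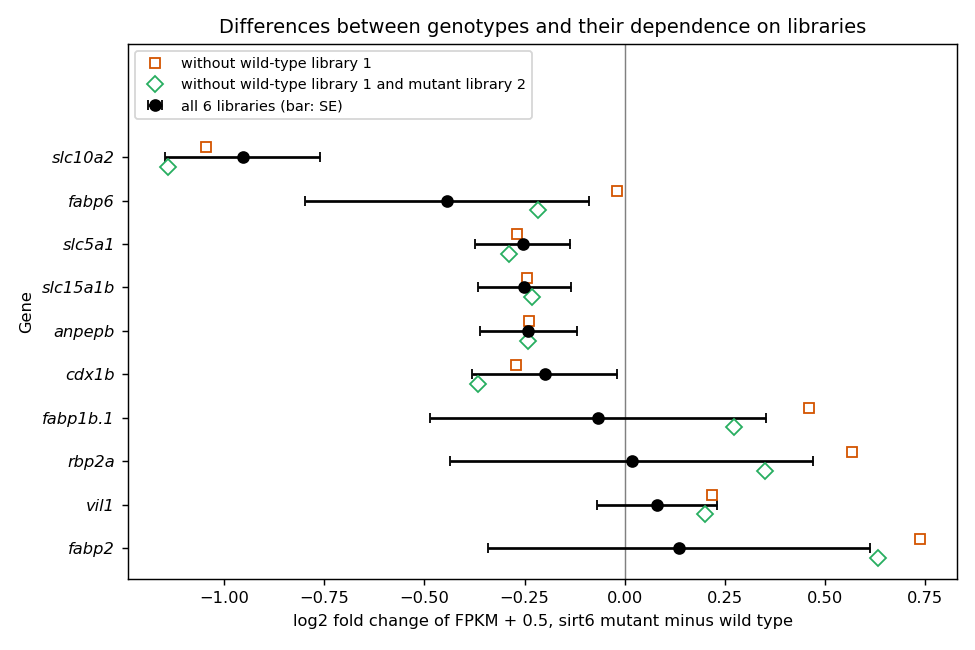
Log2 fold change of FPKM + 0.5, sirt6 mutant minus wild type, of each absorption gene, for all 6 libraries with SE as black points, without WT library 1 as squares and without WT library 1 and mutant library 2 as diamonds. The points of slc10a2, slc5a1, slc15a1b and anpepb are below 0 in all 3 fits, and those of fabp1b.1 cross 0.

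The median log2 fold change of the 10 genes was -0.22, beside 0.0002 over all genes tested, and 7 of them had a log2 fold change below 0, as did 11918 of all 23855 genes tested. The FPKM means of fabp2 and rbp2a were lower in mutants although their log2 fold changes were above 0. With each library left out in turn the median of the 10 ran from -0.26 to -0.13. These values stem from the contrast by which the genes were picked and describe it only.

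Other genes, here called gut genes, were taken from 11 lists on absorption, gut cell types and relatives of the 10 genes. Some of them, such as cyp7a1 and fabp10a, are genes of the liver, and some stand on the pancreas or pronephros lists described below. The name gut gene therefore does not mean a gene expressed only in the gut. The 11 lists hold 200 genes of the table, of which 176 were tested with limma over the whole table. Counts of direction in these lists are of log2 fold changes, called negative where they lie below 0 and positive above it. Negative ones were found for 119 of the 176 and positive ones for 57, with a median log2 fold change of -0.10. The negative count was 113 of 177 without WT library 1 and mutant library 2. Groups were apart with mutants lower for 32 of the 176 (18.2%) and with mutants higher for 6 (3.41%), beside 5.4% as lower and 5.16% as higher over all genes tested. None passed limma at an adjusted p under 0.05, as none did among all 23855 genes (0.0%). At an unadjusted p under 0.05 there were 18 gut genes, 13 lower and 5 higher, and 5.73% of all genes, 3.28% as lower and 2.45% as higher. Voom, limma's method for reads, passed 0 gut genes and 0.0% of all genes, and 14 gut genes and 5.04% of all had an unadjusted p under 0.05. Without WT library 1 and mutant library 2 together, limma passed 30 gut genes as lower (16.9%) and 6 as higher (3.39%), beside 9.32% and 9.07% of all 23912 genes tested in that fit. The lists were written with earlier results of these data known, and genes of a list share their libraries, so these shares are no test.

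**Figure D5:**
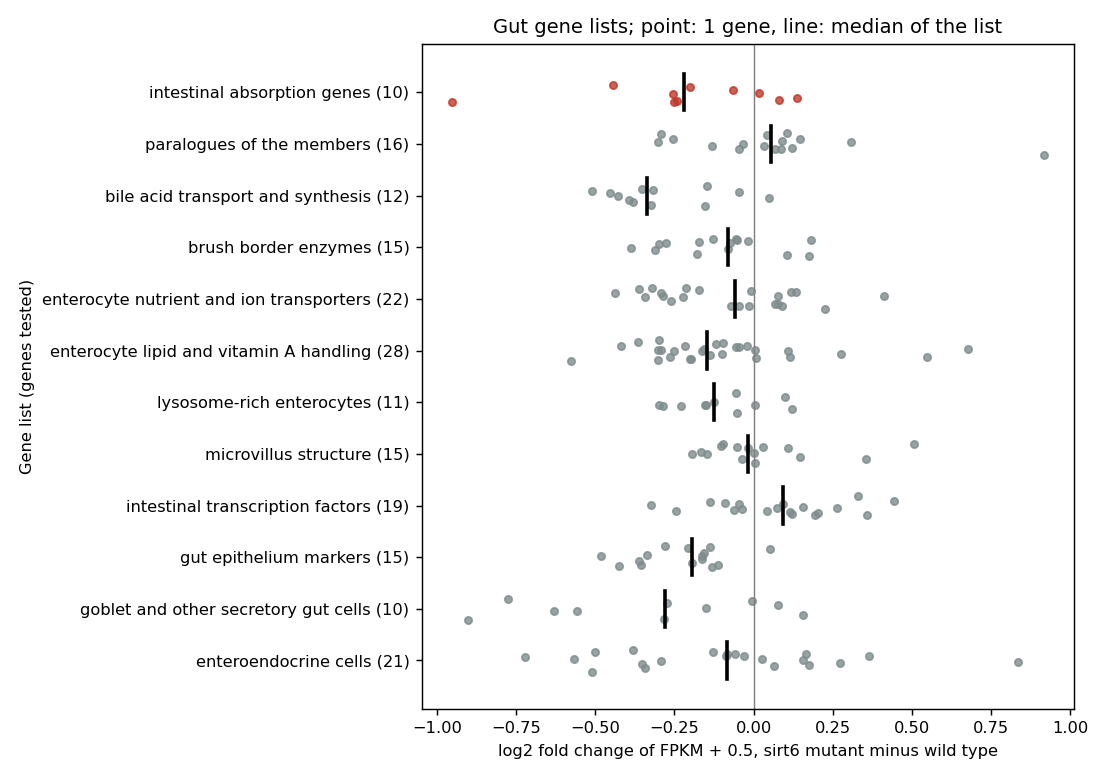
Log2 fold change of FPKM + 0.5, sirt6 mutant minus wild type, of each tested gene in the absorption set (red, top row) and in 11 other gut lists (grey), with a black line at the median of each list and the number of genes tested in brackets. The medians run from -0.34 for bile acid genes to 0.09 for transcription factors, and none of the grey genes passed limma.

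Bile acid genes had the lowest median, -0.34, with negative log2 fold changes in 11 of 12 tested genes and 0 passing. The gene cyp7a1, whose enzyme is rate-limiting in the synthesis of bile acids in liver, had 27.1, 32.2 and 25.3 FPKM in mutant libraries 1, 2 and 3, against 38.8, 38.6 and 36.2 FPKM in WT libraries 1, 2 and 3. All mutant libraries of cyp7a1 were below the WT libraries, and limma gave -0.43 on the log2 scale with an SE of 0.14 (adjusted p = 0.775). The genotypes were also apart for cyp7b1, an oxysterol hydroxylase gene, at 5.06 ± 1.47 FPKM in mutants and 7.26 ± 0.998 FPKM in WT (SD, n = 3 each; limma adjusted p = 0.868). The gene slc51a, for a subunit of the exporter that passes bile acids on to the blood, had 18.9, 26.04 and 18.7 FPKM in mutant libraries 1, 2 and 3, against 23.6, 28.4 and 29.1 FPKM in WT libraries 1, 2 and 3, so the genotypes overlapped. The bile acid receptor gene nr1h4 overlapped too, at 1.51 to 2.21 FPKM in mutants and 2.13 to 3.12 FPKM in WT.

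Of 15 tested brush border enzyme genes, 12 had negative log2 fold changes and 0 passed. All mutant libraries lay below the WT libraries for 6 of them (40%), beside 5.4% of all genes tested. The dipeptidyl peptidase gene dpp4 had 12.8, 13.1 and 13.1 FPKM in mutant libraries 1, 2 and 3, against 15.6, 16.2 and 15.8 FPKM in WT libraries 1, 2 and 3 (log2 fold change -0.28, SE 0.12, limma adjusted p = 0.867). The meprin gene mep1a.1 stood at 13.6 ± 1.91 FPKM in mutants and 16.8 ± 0.674 FPKM in WT, and the aminopeptidase P gene xpnpep2 at 1.92 ± 0.337 FPKM in mutants and 2.65 ± 0.355 FPKM in WT (SD, n = 3 each). Both were apart between genotypes, with limma adjusted p = 0.883 and 0.892. The median of this list was -0.08.

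Nutrient and ion transporters other than the 3 above had negative log2 fold changes in 14 of 22 tested genes and positive ones in 8, and 0 passed. The median of this list was -0.06, and the 3 genes described next were picked for the smallest p, so they do not stand for the list. The genotypes were apart as lower for 6 of the 22, against 5.4% of all genes tested. The phosphate transporter gene slc34a2a had 8.17, 8.504 and 8.19 FPKM in mutant libraries 1, 2 and 3, against 11.2, 12.2 and 10.9 FPKM in WT libraries 1, 2 and 3 (log2 fold change -0.44, SE 0.13, limma adjusted p = 0.775). The amino acid transporter gene slc7a9 averaged 4.004 ± 0.136 FPKM in mutants and 5.296 ± 0.397 FPKM in WT, and the glucose carrier gene slc2a2 averaged 12.1 ± 0.54 FPKM in mutants and 14.9 ± 0.835 FPKM in WT (SD, n = 3 each). Their limma adjusted p were 0.838 and 0.868.

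Among relatives of the 10 genes, the second zebrafish copy of the peptide transporter, slc15a1a, had 7.47, 8.004 and 6.52 FPKM in mutant libraries 1, 2 and 3, against 10.3, 8.37 and 8.61 FPKM in WT libraries 1, 2 and 3. The genotypes were apart, as they were for slc15a2, the carrier of this family known from mammalian kidney, at 7.77 ± 0.361 FPKM in mutants and 9.36 ± 0.386 FPKM in WT (SD, n = 3 each). Limma gave adjusted p = 0.893 and 0.892. The copy of anpepb, anpepa, stood far lower, at 1.76 to 2.17 FPKM in mutants and 1.49 to 2.01 FPKM in WT. The neighbouring copy of fabp1b.1, fabp1b.2, had 0.394 to 0.725 FPKM in mutants and 0.56 to 1.02 FPKM in WT. Reads that such copies share could be split by the counting, which makes their levels less sure.

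The liver carrier gene fabp10a is a further relative of the carriers, and it had 199, 278 and 189 FPKM in mutant libraries 1, 2 and 3, against 491, 181 and 155 FPKM in WT libraries 1, 2 and 3. This is the order of libraries seen in fabp1b.1, but for the 2 lowest. In adipose-type fabp11b the genotypes overlapped, at 0.946 to 3.72 FPKM in mutants and 0.738 to 1.80 FPKM in WT, from 6 to 35 reads. Over the 16 tested relatives 10 had positive and 6 had negative log2 fold changes, and the median was 0.05.

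Genes of lipid and vitamin A handling had negative log2 fold changes in 21 of 28 tested, with 0 passing and 5 apart as lower, beside 5.4% of all genes tested. The apolipoprotein gene apoa4a had 7.63, 7.59 and 5.76 FPKM in mutant libraries 1, 2 and 3, against 12.1, 10.1 and 9.67 FPKM in WT libraries 1, 2 and 3 (log2 fold change -0.58, SE 0.17, limma adjusted p = 0.775). The fatty acid translocase gene cd36 averaged 41.0 ± 3.97 FPKM in mutants and 52.8 ± 1.86 FPKM in WT (SD, n = 3 each; limma adjusted p = 0.808). In the other direction, apoa1a overlapped at 5.34 to 7.76 FPKM in mutants and 2.49 to 5.78 FPKM in WT. Genes of lysosome-rich enterocytes, which take in protein whole, had negative log2 fold changes in 8 of 11, with 0 passing, among them tmigd1 at 2.01 ± 0.186 FPKM in mutants and 2.57 ± 0.166 FPKM in WT (SD, n = 3 each; limma adjusted p = 0.913).

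Microvillus genes had negative log2 fold changes in 9 of 15, with a median of -0.02 and 0 passing. The actin bundler gene pls1 averaged 8.68 ± 0.616 FPKM in mutants and 9.78 ± 0.302 FPKM in WT, while eps8a, for an actin capping protein, averaged 8.48 ± 0.489 FPKM in mutants and 6.02 ± 2.09 FPKM in WT (SD, n = 3 each). For eps8a WT library 1, at 8.43 FPKM, lay among the mutants. The genotypes overlapped for ezrb, at 21.7 to 23.7 FPKM in mutants and 23.0 to 26.7 FPKM in WT. Limma adjusted p was 0.928 for pls1, 0.868 for eps8a and 0.93 for ezrb.

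Gut transcription factors had positive log2 fold changes for 12 of 19 tested genes, with a median of 0.09 and 0 passing. The genotypes were apart as higher in 5 and as lower in 1 of the 19, beside 5.16% and 5.4% of all genes tested. The genes gata6 and hnf4b, of endoderm factors, had 11.6, 9.22 and 11.7 FPKM and 7.18, 8.44 and 7.09 FPKM in mutant libraries 1, 2 and 3, against 8.59, 8.03 and 8.25 FPKM and 5.60, 6.45 and 4.38 FPKM in WT libraries 1, 2 and 3. Limma adjusted p was 0.862 for gata6 and 0.839 for hnf4b. Higher levels in mutants were also seen for foxa3, at 8.17 ± 0.673 FPKM in mutants and 6.71 ± 0.383 FPKM in WT (SD, n = 3 each; limma adjusted p = 0.895).

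Markers of the gut epithelium had negative log2 fold changes in 14 of 15 tested genes, with 0 passing and 2 apart as lower, beside 5.4% of all genes tested. The adenosine deaminase gene ada had 56.2, 65.7 and 56.4 FPKM in mutant libraries 1, 2 and 3, against 71.0, 85.1 and 84.0 FPKM in WT libraries 1, 2 and 3 (log2 fold change -0.43, SE 0.14, limma adjusted p = 0.775). The tetraspanin-like gene tm4sf5 averaged 8.83 ± 1.49 FPKM in mutants and 11.2 ± 0.506 FPKM in WT (SD, n = 3 each; limma adjusted p = 0.868). For gpa33b the genotypes overlapped, at 12.7 to 13.7 FPKM in mutants and 13.3 to 25.4 FPKM in WT, with limma adjusted p = 0.868. The median of this list was -0.19.

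Genes listed for goblet and other secretory gut cells had negative log2 fold changes in 8 of 10, with 0 passing. Their median was -0.28. In bulk tails the organ that made these transcripts cannot be told. The mucin gene muc2.2 of this list was at 0 in all libraries but WT library 3, at 0.0136 FPKM. The mucin genes muc5.2 and muc5.1 had log2 fold changes of -0.90 (SE 0.28, limma adjusted p = 0.775) and -0.78 (SE 0.34, limma adjusted p = 0.868). Mutants had 1.73 to 2.14 FPKM of muc5.2 and 4.39 to 6.25 FPKM of muc5.1. WT libraries 1, 2 and 3 had 2.49, 4.86 and 5.67 FPKM of muc5.2 and 5.25, 12.5 and 13.9 FPKM of muc5.1, so WT library 1 lay near the mutants in muc5.2 and among them in muc5.1. For best4 the genotypes overlapped, at 0.954 to 2.59 FPKM in mutants and 2.33 to 3.04 FPKM in WT. It had 16 to 44 reads per library, with limma adjusted p = 0.892. Enteroendocrine genes had negative log2 fold changes in 13 of 21, with 0 passing. Among them the proglucagon gene gcga averaged 2.56 ± 0.667 FPKM in mutants and 3.79 ± 0.178 FPKM in WT, and tph1b, for a tryptophan hydroxylase, averaged 0.96 ± 0.148 FPKM in mutants and 1.68 ± 0.376 FPKM in WT (SD, n = 3 each; limma adjusted p = 0.838 for both). The peptide YY gene pyya overlapped, at 6.39 to 10.7 FPKM in mutants and 2.65 to 8.11 FPKM in WT.

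Markers of other abdominal organs were counted in the same way, and the pancreas, liver and pronephros lists each share genes with the gut lists. Of 17 tested exocrine pancreas genes, 10 had negative log2 fold changes, with a median of -0.09, 0 were apart, and their summed level was 2112 to 2937 FPKM in mutants and 2137 to 3103 FPKM in WT. Of 18 liver genes, 10 had negative log2 fold changes, with a median of -0.08. The genotypes were apart as lower for 2 and as higher for 2 of them (11.1% each), beside 5.4% and 5.16% of all genes tested, and the sum was 4841 to 6888 FPKM in mutants and 5825 to 7585 FPKM in WT. Of 15 tested pronephros genes, 7 had negative log2 fold changes, with a median of 0.003, and the sum over 16 was 229 to 232 FPKM in mutants and 229 to 270 FPKM in WT. The genotypes were apart as lower for 1 and as higher for 1 of the 15 (6.67% each). None of the pancreas, liver and pronephros genes found was at 0 in all libraries. The pancreas gene ctrb1, at 0 to 0.653 FPKM, and the pronephros gene slc20a1a, at 0.0971 to 0.277 FPKM, were below the filter and not tested. Both were lower in each mutant library than in any WT library, but from only 0 to 16 reads per library for ctrb1 and 5 to 15 for slc20a1a. No share was computed for genes below the filter, so nothing is read from these genes. The summed level of the 10 absorption genes was 495 to 666 FPKM in mutants and 513 to 1023 FPKM in WT, most of it fabp1b.1. The part of organ content of the tails in the absorption genes was not tested.

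Skeletal muscle genes summed to 37970 to 51459 FPKM in mutants and 39124 to 56531 FPKM in WT, and 7 of 13 tested had negative log2 fold changes. Notochord and cartilage genes summed to 738 to 799 FPKM in mutants and 585 to 685 FPKM in WT, and all 11 tested had positive log2 fold changes. Blood genes summed to 850 to 1248 FPKM in mutants and 630 to 1166 FPKM in WT, with 7 of 8 tested at positive log2 fold changes. The genotypes were apart as higher for 4 of these 8 (50%) and as lower for 0, beside 5.16% and 5.4% of all genes tested. Listed but below the filter were alas2, at 0, and gata1a, lyz and coro1a. Mutants averaged 0.259 FPKM of gata1a and 0.28 FPKM of lyz, against 0.446 and 0.597 FPKM in WT, and both overlapped. They had only 4 to 23 and 0 to 8 reads per library, and their direction is not that of most tested blood genes. None of these genes passed limma, and their part in the lower gut values was not tested.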

How the data were processed

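RNA-seq of 3 sirt6 mutant and 3 wild-type libraries was used. The authors deposited FPKM values in 1 table, with gene lengths and GRCz11 positions. The submitters' processing notes name HISAT2 2.0.5, featureCounts, FastQC and DESeq2, in no order; annotation release, strand setting and filters are not stated there. FPKM times gene length came out in whole steps in each library for 100% of values above 0 (tolerance 1e-06), which gave back reads per gene (12438359 to 14655293 per library). The library size implied by the FPKM was 0.952 (mutant library 2) to 1.06 (mutant library 3) times these reads. The libraries were thus not scaled by the total of reads in genes. Log2(FPKM + 0.5) was fitted with limma 3.58.1 in R 4.3.3 with a variance trend, for the 23855 genes whose mean reached 0.5 FPKM. P-values were two-sided and had Benjamini-Hochberg adjustment across the 23855 genes, with a threshold of 0.05. Alternatives changed the pseudocount, filter, scaling, variance model, unit and libraries, or added the replicate block. Exact tests of 3 against 3 libraries were not run. The fit was tested on simulated data with independent genes and libraries and a common spread. The close pairs of libraries and the short-gene pattern of wild-type library 1 were not simulated.

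The 10 genes and the lists were chosen with earlier results of these data known. Named were the 10 genes, and up to 3 other genes per gut list with a mean of at least 1 FPKM and the smallest p. Also named were the 5 genes most like the set. Of the 3 highest genes of each other tissue, only actc1b, prss1 and apoa2 are described. Other list members in the text (nr1h4, anpepa, fabp1b.2, fabp10a, muc2.2, ctrb1, slc20a1a, alas2, gata1a, lyz, coro1a) were named after their values were seen. Smooth muscle, skin and blood lists were computed as well: log2 fold changes were below 0 for 4 of 9, 7 of 11 and 1 of 8 tested genes. Sequence comparisons were not run, as no sequence was used here.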

Additional observations from a re-analysis of the deposited data

How the results depend on the processing

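The count of genes passing limma, 0 with all 6 libraries, was 2 when a mean of 5 FPKM was required, 2 with quantile normalization, 4397 without wild-type library 1 and mutant library 2 together and 4849 with library quality weights, and 0 with each library left out in turn. The fit without both libraries and the weighted fit were chosen after seeing the data, and the cause of these counts was not tested. In the fit without both libraries, 30 gut genes other than the 10 passed as lower and 6 as higher of 177 (16.9% and 3.39%), beside 9.32% and 9.07% of all 23912 genes tested; the libraries left are the close pairs, so genotype and pair cannot be told apart. The number of gut genes with a log2 fold change below 0, 119, was 72 of 105 under the filter of 5 FPKM, where fewer genes were tested, and 103 to 122 with each library left out. The median of the 10 genes kept its sign in all 17 alternatives, -0.26 to -0.13 when a library was left out. The filter of 5 FPKM dropped slc10a2 and cdx1b, so the median there was that of the other genes of the set. Of the 33 named gut genes other than the 10, named for their small p, 0 changed sign in any alternative. For those whose genotypes were apart, leaving out a library could not change the sign. Of the 33, 16 passed without wild-type library 1 and mutant library 2, beside 4397 of all 23912 genes tested in that fit. With library quality weights 22 passed, beside 4849 of all 23855 genes tested. In the other 15 alternatives 0 of the 33 passed. The 33 were picked for small p in this same contrast, so nothing is read from these counts. The log2 fold change changed sign in 5 alternatives for fabp1b.1, in 3 for rbp2a and in 2 for fabp2.

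Deviations of same-numbered libraries had correlations of 0.0534, 0.0121 and 0.106, beside -0.102 to 0.0381 for libraries of different numbers. The values of 0.0534 and 0.106 lay above that range and 0.0121 lay within it. All were low, and the numbers were not taken to pair the libraries. With the replicate block 0 genes passed. Few reads limit slc10a2, rbp2a and fabp11b. The same holds for fabp1b.2 (3 to 8 reads per library), tph1b (24 to 58), nr1h4 (41 to 88) and tmigd1 (52 to 68), among others.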
